A study of Arabidopsis thaliana with 24 samples.

Results

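The pigment-binding proteins that surround photosystem I, and the monomeric ones that stand between the core of photosystem II and its outer antenna, are encoded in Arabidopsis thaliana by 9 nuclear genes whose transcripts are described here. They were chosen by locus, with earlier results of these data known, so the shares of all genes set beside their counts are a description. The 5 minor antenna genes of photosystem II are LHCB4.1 (AT5G01530), LHCB4.2 (AT3G08940), LHCB4.3 (AT2G40100), LHCB5 (AT4G10340) and LHCB6 (AT1G15820). The 4 antenna genes of photosystem I are LHCA1 (AT3G54890), LHCA2 (AT3G61470), LHCA3 (AT1G61520) and LHCA4 (AT3G47470). Each table of counts listed 37184 loci, and all 9 members were among the 13592 genes that passed the filter on low counts. Transcript 3′ ends were counted in plants 21 days old, raised on soil in long days with 16 h of light. There were 24 libraries, 4 of each of 6 genotypes. The genotypes comp-mut-dN, comp-wt-dN, comp-mut and comp-wt are dxo1-2 mutants that carry a version of DXO1 under the viral promoter 35S, dxo1-2 is that mutant with no added gene, and Col-0 is the wild type. The protein encoded in comp-wt is unaltered, that in comp-mut carries the substitutions E394A and D396A, that in comp-wt-dN lacks the N-terminal stretch that the labels write as ΔN194, and that in comp-mut-dN has both changes. This promoter is active in most plant tissues, so transgene expression does not follow that of the native gene. Whether each line is a single transformation event, and whether several plants were pooled for a library, is not given in the labels, so p-values measure the spread between libraries, which may be technical.

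Light-harvesting proteins bind chlorophyll and carotenoids in the thylakoid membrane and pass the absorbed energy to the reaction centres. LHCB4, LHCB5 and LHCB6, also known as CP29, CP26 and CP24, are monomers that link the photosystem II core to the trimers of LHCB1, LHCB2 and LHCB3, and they take part in the harmless release of excess energy. LHCA1 to LHCA4 form a belt on one side of photosystem I, LHCA1 paired with LHCA4 and LHCA2 paired with LHCA3. Their genes are transcribed in the nucleus, are strongly expressed in green tissue and respond to light and to the circadian clock. DXO1 belongs to the DXO decapping enzymes, which are known to take NAD caps off RNA. The Arabidopsis protein has a plant-specific N-terminal extension, and its mutants are known for pale leaves.

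The 3 LHCB4 genes and LHCA2 are shown by the 250 bases before their annotated start, because LHCB4.3 went its own way in the counts while its paralogs LHCB4.1 and LHCB4.2 moved with the rest, and because LHCA2 had the largest fall. In assembly TAIR10.1, LHCB4.1 lies at chr5:208866-210548, LHCB4.2 at chr3:2717557-2718923, LHCB4.3 at chr2:16745628-16747424 and LHCA2 at chr3:22745514-22747444, all on the plus strand and with 2, 2, 2 and 4 exons. The other members are LHCB5 at chr4:6408007-6409849 and LHCA3 at chr1:22699715-22701412 on the plus strand, and LHCB6 at chr1:5446462-5447880, LHCA1 at chr3:20339504-20341176 and LHCA4 at chr3:17493343-17495033 on the minus strand. The windows printed are chr5:208616-208865, chr3:2717307-2717556, chr2:16745378-16745627 and chr3:22745264-22745513, given 5′ to 3′ on the strand of the gene, from the RefSeq assembly. Capitals mark matches to 5 motifs searched on both strands: the G-box CACGTG, the I-box GATAAG, the CCAATC box, the CCA1 site AANAATCT and the evening element AAATATCT.
LHCB4.1: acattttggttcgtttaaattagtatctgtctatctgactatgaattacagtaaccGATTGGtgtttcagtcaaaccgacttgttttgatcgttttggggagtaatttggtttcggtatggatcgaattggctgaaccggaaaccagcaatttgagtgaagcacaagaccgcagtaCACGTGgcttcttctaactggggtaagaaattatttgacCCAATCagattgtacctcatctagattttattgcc
LHCB4.2: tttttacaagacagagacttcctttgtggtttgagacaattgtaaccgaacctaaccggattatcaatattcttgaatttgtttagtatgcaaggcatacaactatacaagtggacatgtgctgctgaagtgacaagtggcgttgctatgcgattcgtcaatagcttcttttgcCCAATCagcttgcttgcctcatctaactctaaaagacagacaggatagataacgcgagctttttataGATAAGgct
LHCB4.3: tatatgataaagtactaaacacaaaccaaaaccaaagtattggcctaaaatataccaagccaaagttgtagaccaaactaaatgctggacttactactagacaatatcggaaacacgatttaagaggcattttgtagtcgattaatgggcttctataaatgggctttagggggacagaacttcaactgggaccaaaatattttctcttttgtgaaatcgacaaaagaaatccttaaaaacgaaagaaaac
LHCA2: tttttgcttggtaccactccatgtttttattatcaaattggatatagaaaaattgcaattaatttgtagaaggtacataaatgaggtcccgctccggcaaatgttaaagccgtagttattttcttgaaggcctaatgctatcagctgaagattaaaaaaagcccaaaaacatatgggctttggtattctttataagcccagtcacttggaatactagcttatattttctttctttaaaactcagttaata

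In these windows LHCB4.1 holds a G-box and the CCAATC box on both strands, and LHCB4.2 holds 1 CCAATC box and an I-box that ends 4 bases before the gene start. LHCB4.3 and LHCA2 hold none of the 5 motifs. Any link between the motifs and the counts was not tested. Of the 9 members, 5 hold a CCAATC box (LHCB4.1, LHCB4.2, LHCA1, LHCA3 and LHCA4), against 10.2% of the windows of the same length before 27443 annotated genes. A G-box is in 3 of 9 members (LHCB4.1, LHCB6 and LHCA4), against 6.49% of all windows, an I-box in 3 of 9 (LHCB4.2, LHCB6 and LHCA1), against 12.3%, and a CCA1 site in 2 of 9 (LHCB5 and LHCA4), against 13.4%. The evening element is in 0 of 9 members and in 4.79% of all windows. The motifs do not overlap one another in the members' windows. These matches are letters in a window and say nothing of whether a factor binds there.

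Libraries held 1270033 to 3490594 counts. DXO1 itself (AT4G17620) had 5.14 ± 1.71 CPM in comp-mut-dN, 4.45 ± 1.77 in comp-wt-dN, 18.4 ± 2.43 in comp-mut, 12.2 ± 1.24 in comp-wt, 3.36 ± 0.645 in dxo1-2 and 15.6 ± 2.97 in Col-0 (SD, n = 4), where CPM is the count relative to library size after TMM scaling. DXO1 was called above dxo1-2 in comp-mut and comp-wt (log2 fold changes 2.48 and 1.88, edgeR adjusted p 9.93e-07 and 3.37e-05). In comp-mut-dN and comp-wt-dN its libraries overlapped with those of dxo1-2 and it was not called (log2 fold changes 0.67 and 0.40, edgeR adjusted p 0.695 and 0.547), so these counts do not tell the truncated lines from the mutant. The truncated lines were called below the full-length lines (log2 fold changes -1.81 and -1.49, edgeR adjusted p 1.75e-05 and 0.000215). In every comparison between them the missing N-terminal stretch and the lower DXO1 count cannot be told apart. Whether the 3′ counts at this locus take in all transgene RNA is not known here, so they may not measure the transgene level. Markers of root and flower were near absent, with summed levels of at most 3.03 and 3.78 CPM in any library and COBL9 and EXPA7 at 0 counts in all 24, and SAG12 of senescing leaf had at most 3 counts in a genotype. On the main axis of spread within genotypes, which took 41.6% of it, replicate 3 of comp-mut stood farthest out at -70.95, and replicates 4 and 2 of comp-wt-dN stood at 61.83 and -54.7. Calls that changed when 1 of these libraries was left out are given with and without it.

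Of the 9 antenna genes, 8 had lower counts in dxo1-2 than in Col-0. In dxo1-2 against Col-0 the 3 photosystem I antenna genes LHCA1, LHCA2 and LHCA3 and the minor antenna genes LHCB4.1 and LHCB6 stood at 51.3% to 57.6% of the Col-0 level, LHCB4.2 and LHCA4 at 65.1% and 67.9%, and LHCB5 at 77.6%. LHCB4.3, the third gene for CP29, was not called. With the quasi-likelihood test of edgeR and a Benjamini-Hochberg adjusted p under 0.05, 0 members were called higher and 8 lower, against 14.7% and 7.93% of all genes tested (22.6% in either direction). The median log2 fold change was -0.80 over the members and 0.02 over all genes tested. For the 8 called members the libraries of dxo1-2 and Col-0 did not overlap, as was so for 26.1% of all genes. The members together took 3.97 ± 0.193% of all counts in dxo1-2 and 6.14 ± 0.193% in Col-0 (SD, n = 4 each).

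Among the photosystem I antenna genes, LHCA2 had 3487, 3983, 3727 and 3715 CPM in the dxo1-2 libraries, against 7245, 7391, 6901 and 7517 CPM in the Col-0 libraries. Every dxo1-2 library was below every Col-0 library by a wide gap, the largest fall of the members (log2 fold change -0.96, SE 0.12, edgeR adjusted p 7.53e-07). Its partner LHCA3 had 5234, 5064, 5384 and 4758 CPM in dxo1-2 and 9414, 8380.3, 9469 and 8204 CPM in Col-0 (log2 fold change -0.80, SE 0.11, edgeR adjusted p 6.52e-06). The Col-0 libraries fell into a higher and a lower pair, and both pairs lay above all dxo1-2 libraries. LHCA1 had 5047, 4819, 4633 and 3994 CPM in dxo1-2 and 8638, 8511, 8005 and 8706 CPM in Col-0 (log2 fold change -0.87, SE 0.14, edgeR adjusted p 2.53e-05). LHCA4, which together with LHCA3 holds the chlorophylls that absorb farthest to the red, had 6572, 8159.7, 7943 and 9011 CPM in dxo1-2 and 12003, 11528, 11664 and 11437 CPM in Col-0 (log2 fold change -0.56, SE 0.13, edgeR adjusted p 0.00217). Its dxo1-2 libraries were spread more widely than its Col-0 libraries, with replicate 1 lowest and replicate 4 highest, and the genotypes still did not overlap. LHCA1 and LHCA4, which pair in the complex, fell by 0.87 and 0.56 on the log2 scale, and LHCA2 and LHCA3 by 0.96 and 0.80. The difference between these falls was not tested.

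Among the minor antenna genes, LHCB4.1 had 4225, 4767, 3911 and 3468 CPM in dxo1-2 and 7583, 8168, 6803 and 8106 CPM in Col-0 (log2 fold change -0.91, SE 0.14, edgeR adjusted p 1.96e-05). LHCB4.2 had 2367, 2857, 2530.1 and 2434 CPM in dxo1-2, against 3903, 3822, 3848 and 4075 CPM in Col-0, where its libraries lay close together (log2 fold change -0.62, SE 0.14, edgeR adjusted p 0.00125). The third CP29 gene did not fall with its paralogs. LHCB4.3, whose transcript is known to accumulate in strong light, had 119.6, 106, 112 and 93. CPM in dxo1-2 and 105, 83.9, 85.8 and 101 CPM in Col-0, with overlapping libraries (log2 fold change 0.20, SE 0.16, edgeR adjusted p 0.436). Its 95% interval of -0.14 to 0.53 lies above the falls of its paralogs. LHCB6, the CP24 gene, had 3887, 5407, 4816 and 5367 CPM in dxo1-2 and 8747, 9466, 7714 and 10158 CPM in Col-0, the widest spread relative to the mean among the called members in both genotypes, and yet without overlap (log2 fold change -0.89, SE 0.16, edgeR adjusted p 0.000183). LHCB5, the CP26 gene, had 6730.2, 6904, 6910.0 and 7156 CPM in dxo1-2 and 9678, 8696, 9461 and 7848 CPM in Col-0 (log2 fold change -0.36, SE 0.12, edgeR adjusted p 0.0213). This smallest fall is the least secure of the 8, since it was not called without Col-0 replicate 1 (log2 fold change -0.32, edgeR adjusted p 0.0776) or with no filter on low counts (log2 fold change -0.39, edgeR adjusted p 0.0978).

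In RNA from mixed cells, fewer green cells and less transcript per green cell cannot be told apart. The green leaf markers RBCS1A, RCA and CA1 summed to 22863 to 29509 CPM in dxo1-2 and to 31218 to 41360 CPM in Col-0, without overlap, and 1 of the 3, RBCS1A (log2 fold change -0.59, edgeR adjusted p 0.0094), was called lower. The log2 fold changes of the 3 ran from -0.80 to -0.23, so a marker that was not called fell more than RBCS1A. The part of these markers in the falls of the antenna genes was not tested. Transcript length also moved with the fold changes. In each library a smooth curve on the log2 of summed exon length was fitted to the genes' deviations from their mean log2 CPM over all libraries. With this curve entered as an offset in the count model, the same 8 members were called lower. Of their falls, 7 were larger by 0.1 or more on the log2 scale, with LHCB6 at -1.14, LHCA2 at -1.11 and LHCA4 at -0.77. Over all genes the share of calls that were higher was 64.9% in the fit without this step and 51.9% with it.

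**Figure D1:**
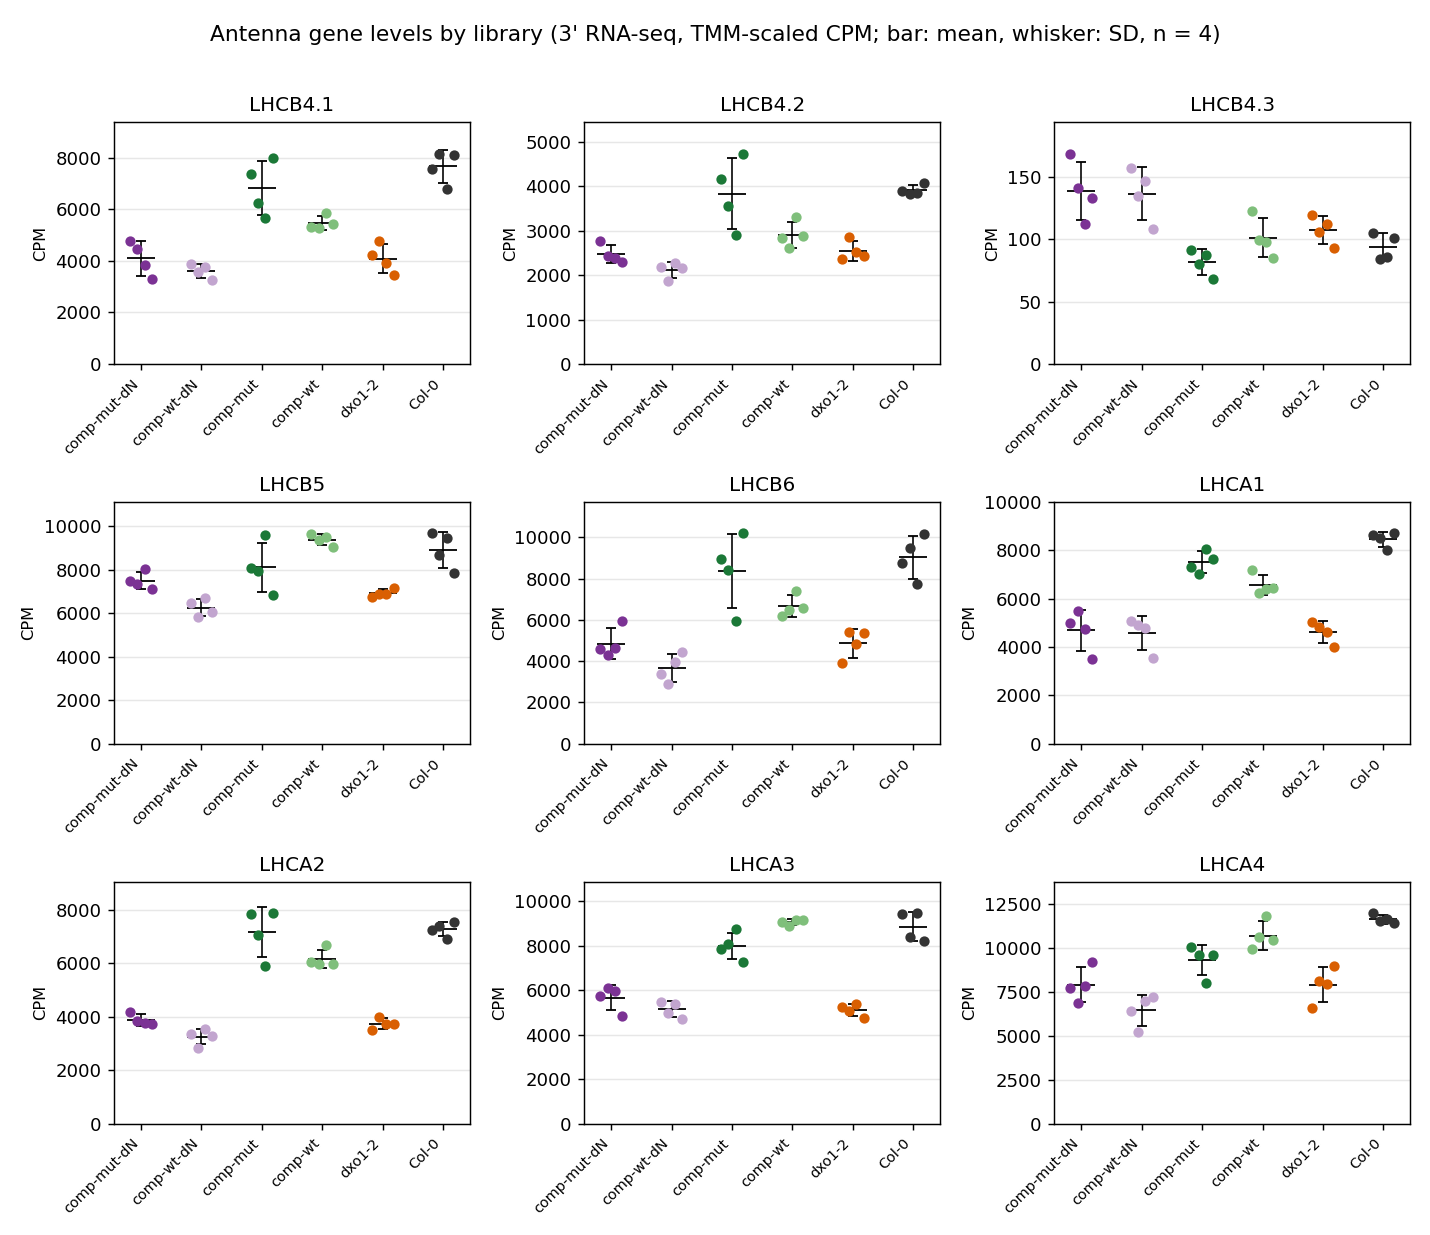
CPM of the 9 antenna genes in each library (points), with mean and SD of the 4 libraries of a genotype, on axes that start at 0. For 8 genes the dxo1-2 points lie below the Col-0 points, while LHCB4.3 lies between 67.8 CPM in comp-mut and 168 CPM in comp-mut-dN and has its highest means in the truncated lines.

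In the lines with full-length DXO1 most antenna genes rose against dxo1-2, with or without the catalytic substitutions. In comp-wt against dxo1-2, 7 members were called higher and 0 lower, against 12.1% of all genes called higher and 18.5% lower (30.6% in either direction). The median log2 fold change was 0.44 over the members and 0.04 over all genes. In comp-mut against dxo1-2, 6 members were called higher and 0 lower, against 10.4% of all genes called higher and 15.1% lower (25.5% in either direction), with medians of 0.65 over the members and 0.03 over all genes. The libraries did not overlap with dxo1-2 for 7 members in each line, against 34% of all genes in comp-wt and 21.3% in comp-mut. The seventh member in comp-mut was LHCB4.3, whose libraries lay below those of dxo1-2 without a call. These comparisons share the dxo1-2 libraries with each other and with the comparison of dxo1-2 with Col-0.

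LHCA2 had 7824, 7058, 5877 and 7864 CPM in comp-mut and 6034, 5959.6, 6666 and 5948 CPM in comp-wt, all above its dxo1-2 libraries (3487 to 3983 CPM). It had the largest rise in comp-mut (log2 fold change 0.94, SE 0.12, edgeR adjusted p 8.67e-07) and the second largest in comp-wt (log2 fold change 0.72, SE 0.12, edgeR adjusted p 2.89e-05). LHCA3 had 7853, 8079, 8740.5 and 7291 CPM in comp-mut and 9057, 8904, 9172 and 9184 CPM in comp-wt, and led the rises in comp-wt (log2 fold change 0.83, SE 0.11, edgeR adjusted p 2.66e-06). In comp-mut its log2 fold change was 0.65 (edgeR adjusted p 9.1e-05). The comp-wt libraries of LHCA3 lay close together and inside the range of Col-0. LHCA1 had 7320.3, 7041, 8055 and 7663 CPM in comp-mut and 7188, 6246, 6406 and 6439 CPM in comp-wt, above all dxo1-2 libraries in both (log2 fold changes 0.70 and 0.51, edgeR adjusted p 0.000332 and 0.00576). LHCA4 had 10066, 9614, 8048 and 9594 CPM in comp-mut and 9940.3, 10619.7, 11845 and 10499 CPM in comp-wt. It was called in comp-wt (log2 fold change 0.44, SE 0.13, edgeR adjusted p 0.0117), where all libraries lay above those of dxo1-2. That call was lost with no filter on low counts (edgeR adjusted p 0.0571). In comp-mut it was not called (log2 fold change 0.24, 95% interval -0.03 to 0.50, edgeR adjusted p 0.19), and replicate 3 lay within the dxo1-2 range. With at least 10 counts required in every library, and after removal of the length trend, it was called (log2 fold changes 0.27 and 0.41, edgeR adjusted p 0.00545 and 3.8e-05).

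LHCB4.1 had 7377, 6252, 5670.4 and 7980.2 CPM in comp-mut and 5330.2, 5283, 5854 and 5439 CPM in comp-wt, against 3468 to 4767 CPM in dxo1-2. Its rise was secure in comp-mut (log2 fold change 0.74, SE 0.14, edgeR adjusted p 0.00023) and weaker in comp-wt (log2 fold change 0.42, SE 0.14, edgeR adjusted p 0.0223), where it was not called without dxo1-2 replicate 3, dxo1-2 replicate 4 or comp-wt replicate 3 (edgeR adjusted p 0.0624, 0.0885 and 0.055) or with no filter on low counts (edgeR adjusted p 0.0873). LHCB4.2 had 4163, 3553, 2895 and 4739 CPM in comp-mut and 2828, 2621, 3311 and 2872 CPM in comp-wt. It rose in comp-mut (log2 fold change 0.59, SE 0.14, edgeR adjusted p 0.00187), and in comp-wt its libraries overlapped with dxo1-2 and it was not called (log2 fold change 0.19, 95% interval -0.09 to 0.47, edgeR adjusted p 0.293). It was called there with at least 10 counts required in every library and after removal of the length trend (log2 fold changes 0.33 and 0.37, edgeR adjusted p 0.0121 and 0.00754). LHCB6 had 8928, 8436, 5930.1 and 10185 CPM in comp-mut and 6175, 6474, 7413 and 6581 CPM in comp-wt. Replicate 3 of comp-mut was the lowest of its 4 for LHCB6, LHCB4.1, LHCB4.2, LHCA2 and LHCA4 and the highest for LHCB5, LHCA1 and LHCA3. LHCB6 was called in both lines (log2 fold change 0.78, SE 0.16, edgeR adjusted p 0.000741 in comp-mut and log2 fold change 0.45, SE 0.16, edgeR adjusted p 0.0362 in comp-wt), but the call in comp-wt was lost when any 1 of dxo1-2 replicates 1 and 3 and comp-wt replicates 2, 3 and 4 was left out (edgeR adjusted p 0.0583 to 0.101) and with no filter on low counts (edgeR adjusted p 0.0747). LHCB5 had 8064, 7963, 9601 and 6834 CPM in comp-mut and 9632, 9378, 9502 and 9067 CPM in comp-wt. It was called in comp-wt (log2 fold change 0.44, SE 0.12, edgeR adjusted p 0.00462) and not in comp-mut (log2 fold change 0.23, 95% interval -0.01 to 0.46, edgeR adjusted p 0.149), where replicate 4 lay among the dxo1-2 libraries. It was called there in DESeq2 and after removal of the length trend (log2 fold changes 0.28 and 0.38).

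LHCB4.3 had 91.3, 80., 86.8 and 67.8 CPM in comp-mut and 122, 99.1, 97.3 and 84.9 CPM in comp-wt, against 93. to 119.6 CPM in dxo1-2. In comp-mut the 4 libraries lay just below those of dxo1-2, with a log2 fold change of -0.40 that was not called (edgeR adjusted p 0.0761). In comp-wt the libraries overlapped with dxo1-2 (log2 fold change -0.10, 95% interval -0.43 to 0.23, edgeR adjusted p 0.681). It was thus the only member with a negative fold change against dxo1-2 in both full-length lines. In comp-wt that sign was not resolved, and it turned after removal of the length trend (log2 fold change 0.017). The green leaf markers summed to 27117 to 34648 CPM in comp-mut, 28646 to 35688 CPM in comp-wt and 22863 to 29509 CPM in dxo1-2, and the lowest edgeR adjusted p among the 3 was that of RBCS1A in both lines (0.186 and 0.0924). Seed storage transcripts also differed, with 3 marker genes summing to 11.1 to 55.2 CPM in comp-mut, 2.05 to 7.06 CPM in comp-wt and 26.7 to 138.7 CPM in dxo1-2. The part of either marker list in the rises was not tested.

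Against Col-0, edgeR called 0 members in comp-mut, where 5.36% of all genes were called, and 0 in comp-wt, where 1.03% were. In comp-wt, LHCB5 and LHCA3 lay closest to Col-0, with log2 fold changes of 0.07 (95% interval -0.16 to 0.31) and 0.03 (-0.20 to 0.26). The libraries of 5 members, LHCB4.1, LHCB4.2, LHCB6, LHCA1 and LHCA2, still lay below all Col-0 libraries, against 14.1% of all genes without overlap. Their log2 fold changes were -0.48, -0.43, -0.44, -0.37 and -0.24 (edgeR adjusted p 0.0854, 0.14, 0.222, 0.221 and 0.354). At an unadjusted p under 0.05 these 5 passed in edgeR. DESeq2 called 2, LHCB4.1 and LHCB4.2, lower, a fit of only comp-wt and Col-0 called LHCB4.1, LHCB4.2, LHCB6 and LHCA1, and removal of the length trend called LHCB4.1, LHCB4.2 and LHCB6. In comp-mut the largest difference was that of LHCA4 (log2 fold change -0.32, 95% interval -0.59 to -0.06, edgeR adjusted p 0.176), the only member there whose libraries did not overlap with Col-0, against 10.1% of all genes. It was called lower when only genes with at least 10 counts in every library were used and when the length trend was removed (log2 fold changes -0.33 and -0.36). At an unadjusted p under 0.05 LHCA4 was the 1 member that passed in comp-mut, and DESeq2 called 0. LHCB4.2 and LHCA2 lay closest to Col-0 in comp-mut, with log2 fold changes of -0.03 and -0.02.

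**Figure D2:**
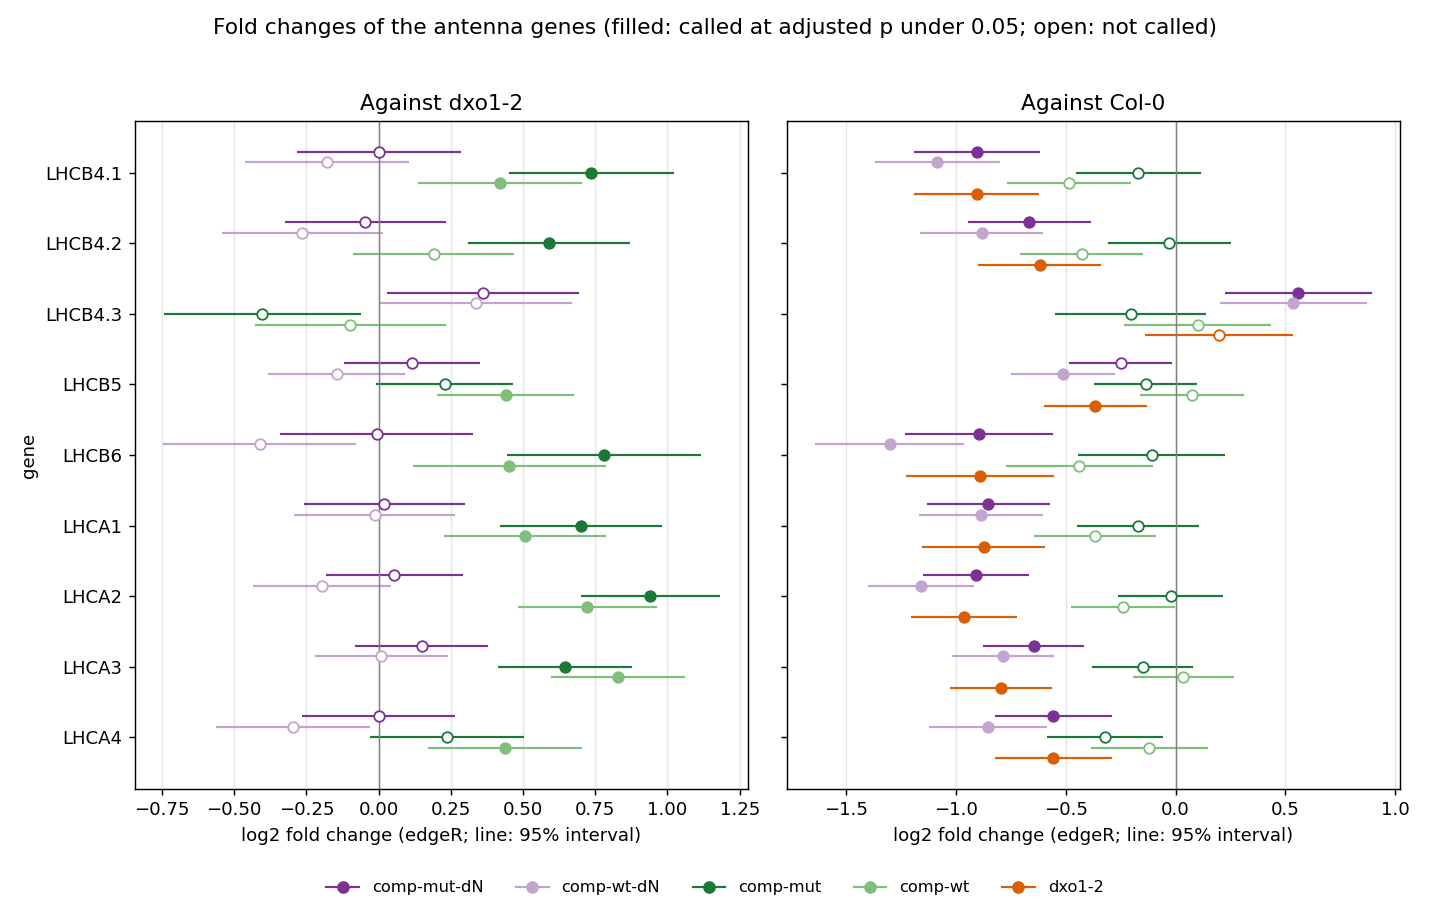
Log2 fold changes from edgeR (points) with 95% intervals (lines) of each line against dxo1-2 on the left, and of each line and dxo1-2 against Col-0 on the right. Filled points passed an adjusted p of 0.05, and open points did not. The full-length lines are shifted up against dxo1-2 for every gene but LHCB4.3, and no point of the truncated lines there is filled. On the right the filled points are those of dxo1-2 and the truncated lines, and LHCB4.3 lies above 0 in both truncated lines.

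In the truncated lines, whose DXO1 counts were also lower, no rise of the antenna genes against dxo1-2 was detected. Against dxo1-2, edgeR called 0 members in comp-mut-dN, where 0.795% of all genes were called, and 0 in comp-wt-dN, where 3.03% were. The median log2 fold change of the members was 0.02 in comp-mut-dN and -0.18 in comp-wt-dN, against 0.02 and 0.02 over all genes. The intervals bound what may have been missed. LHCA2 had 4181, 3834, 3765 and 3709 CPM in comp-mut-dN and 3364, 2842, 3524 and 3283 CPM in comp-wt-dN, against 3487 to 3983 CPM in dxo1-2. Its log2 fold changes were 0.06 (95% interval -0.18 to 0.29) and -0.20 (-0.43 to 0.04), both below the rises of 0.94 and 0.72 seen with the full-length proteins. Over the 8 members other than LHCB4.3 the highest upper bound was 0.38 in comp-mut-dN, that of LHCA3, and 0.27 in comp-wt-dN, that of LHCA1. At an unadjusted p under 0.05, LHCB4.3 passed in comp-mut-dN, and LHCB4.3, LHCB6 and LHCA4 passed in comp-wt-dN, and DESeq2 called 0 members in either line.

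Several members were lowest of all in comp-wt-dN. LHCB6 had 4571, 4279, 4619 and 5930.4 CPM in comp-mut-dN and 3369.8, 2897, 3952 and 4424 CPM in comp-wt-dN (log2 fold changes against dxo1-2 -0.01 and -0.41). LHCA4 had 7757, 6855, 7854 and 9233 CPM in comp-mut-dN and 6420.3, 5212, 6974 and 7206 CPM in comp-wt-dN (log2 fold changes 0.00 and -0.30). Neither of the lower values in comp-wt-dN was called against dxo1-2 (edgeR adjusted p 0.174 and 0.212), and the libraries of both genes overlapped with dxo1-2. LHCB4.2 and LHCB5 had 1869 to 2273 and 5823 to 6702 CPM in comp-wt-dN and were the 2 members whose libraries there lay wholly below those of dxo1-2, against 7.61% of all genes without overlap. In comp-mut-dN 0 members were free of overlap with dxo1-2, against 4.92%. LHCB4.1 and LHCA1 had 3279 to 4774 and 3509 to 5486 CPM in comp-mut-dN, 3268 to 3890.5 and 3559.7 to 5070.1 CPM in comp-wt-dN, and 3468 to 4767 and 3994 to 5047 CPM in dxo1-2. In comp-mut-dN, LHCB4.2, LHCB5 and LHCA3 had 2293 to 2759.8, 7131 to 8031 and 4837 to 6114 CPM. LHCA3 in comp-wt-dN had 4726 to 5482 CPM, within or around its dxo1-2 range of 4758 to 5384 CPM.

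Against Col-0, 1 member was called higher and 7 lower in comp-mut-dN, and 1 higher and 8 lower in comp-wt-dN. Of all genes 17.6% were called higher and 10.7% lower in comp-mut-dN, 28.3% in all, and 16.8% and 12.4% in comp-wt-dN, 29.2% in all. Libraries did not overlap with Col-0 for 8 members in comp-mut-dN and for 9 in comp-wt-dN, against 30.4% and 27.7% of all genes. The medians were -0.67 and -0.88 over the members and 0.03 and 0.08 over all genes. The falls ran from -0.56 in LHCA4 to -0.91 in LHCA2 in comp-mut-dN. They ran from -0.51 in LHCB5 to -1.30 in LHCB6 in comp-wt-dN (edgeR adjusted p at most 0.00173 over these 15 calls). In comp-mut-dN, LHCB5 was not called (7497, 7336, 8031 and 7131 CPM, against 9678, 8696, 9461 and 7848 CPM in Col-0, log2 fold change -0.25, edgeR adjusted p 0.105). The call was made with median-of-ratios size factors, with DESeq2 and after removal of the length trend (log2 fold changes -0.29, -0.29 and -0.42). The green leaf markers summed to 23854 to 31732 CPM in comp-mut-dN, 20977 to 26022 CPM in comp-wt-dN and 31218 to 41360 CPM in Col-0, with RBCS1A called lower in both lines. Both seed markers that passed the filter, CRA1 and CRU3, were called lower in comp-mut-dN (log2 fold changes -2.96 and -2.77, edgeR adjusted p 0.000513 and 0.000319) and not in comp-wt-dN (-0.86 and -0.73, edgeR adjusted p 0.222 and 0.263). The part of either marker list in these falls was not tested.

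LHCB4.3 was the member called higher in both truncated lines. It had 168, 141, 112 and 133 CPM in comp-mut-dN and 157, 134, 146 and 108 CPM in comp-wt-dN, against 105, 83.9, 85.8 and 101 CPM in Col-0. All libraries of the truncated lines lay above all Col-0 libraries, with 1 library of each line close to the highest Col-0 value (log2 fold change 0.56, SE 0.16, edgeR adjusted p 0.0109 in comp-mut-dN, and log2 fold change 0.54, SE 0.16, edgeR adjusted p 0.014 in comp-wt-dN). The call in comp-mut-dN was lost without its replicate 1 and after removal of the length trend (edgeR adjusted p 0.0584 and 0.0511), and that in comp-wt-dN without its replicate 1, Col-0 replicate 2 or Col-0 replicate 3 (edgeR adjusted p 0.0511 to 0.0524). Against dxo1-2 the log2 fold changes were 0.36 and 0.34, neither called (edgeR adjusted p 0.582 and 0.25). The 3 LHCB4 transcripts share only short identical runs near the 3′ end, though 72.2% to 75.2% of their aligned bases there are identical. Where the reads fall, and how reads that match several genes were counted, is not known here. Mixing of counts between the 3 genes was not tested. The longest identical run in the last 300 bases of the transcripts is 8 bases between LHCB4.1 and LHCB4.2, 8 bases between LHCB4.1 and LHCB4.3 and 8 bases between LHCB4.2 and LHCB4.3, and over whole transcripts it is 23, 21 and 20 bases.

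Set directly against the full-length lines, the truncated lines had lower counts of most members. In comp-mut-dN against comp-mut, 1 member was called higher and 6 lower, against 17.6% and 12.6% of all genes (30.2% in either direction). In comp-wt-dN against comp-wt, 1 was called higher and 8 lower, against 17.4% and 12.5% (29.9% in either direction). Libraries did not overlap for 6 members in comp-mut-dN against comp-mut and for 8 in comp-wt-dN against comp-wt, against 24.9% and 29.8% of all genes. LHCA2 fell most in both (log2 fold change -0.89, SE 0.12, edgeR adjusted p 1.51e-06 in comp-mut-dN, and log2 fold change -0.92, SE 0.12, edgeR adjusted p 7.64e-07 in comp-wt-dN). LHCB6 had log2 fold changes of -0.79 and -0.86, and LHCA1 of -0.68 and -0.52, all called. LHCB4.1, LHCB4.2 and LHCA3 were also called lower in both, with log2 fold changes of -0.74, -0.64 and -0.50 in comp-mut-dN and -0.60, -0.46 and -0.82 in comp-wt-dN. The call of LHCB4.2 in comp-wt-dN was lost with no filter on low counts and without comp-wt replicate 3 (edgeR adjusted p 0.0846 and 0.0517). LHCB5 and LHCA4 were called lower in comp-wt-dN (log2 fold changes -0.58 and -0.73, edgeR adjusted p 0.00027 and 8.26e-05). In comp-mut-dN they were not called (log2 fold changes -0.11 and -0.24, edgeR adjusted p 0.491 and 0.179), but LHCA4 was called when only genes with at least 10 counts in every library were used and after removal of the length trend. LHCB4.3 was higher in comp-mut-dN than in comp-mut, with no overlap between 112 to 168 and 67.8 to 91.3 CPM (log2 fold change 0.76, SE 0.17, edgeR adjusted p 0.000797). In comp-wt-dN against comp-wt its libraries overlapped, and the call (log2 fold change 0.43, SE 0.16, edgeR adjusted p 0.0409) was lost with no filter on low counts and when any 1 of comp-wt-dN replicates 1, 2 and 3 and comp-wt replicates 2, 3 and 4 was left out (edgeR adjusted p 0.0599 to 0.141). Of the markers, RBCS1A was called lower in comp-wt-dN than in comp-wt (log2 fold change -0.55, edgeR adjusted p 0.0114), and the seed markers CRA1 and CRU3 were called higher there (2.66 and 3.02, edgeR adjusted p 0.00196 and 0.000225). In comp-mut-dN against comp-mut they were not called (log2 fold changes -1.70 and -1.46, edgeR adjusted p 0.0542 and 0.0622). The part of these markers was not tested.

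Between lines that differ by the catalytic substitutions, no antenna gene was called. In comp-mut-dN against comp-wt-dN, edgeR called 0 members and 2.11% of all genes, and in comp-mut against comp-wt 0 members and 6.28% of all genes. At an unadjusted p under 0.05, 4 members passed between the truncated lines (LHCB5, LHCB6, LHCA2 and LHCA4) and 2 between the full-length lines (LHCB4.1 and LHCB4.2). DESeq2 called 0 between the truncated lines and 2, LHCB4.2 and LHCA2, between the full-length lines. Libraries did not overlap for 3 members between the truncated lines (LHCB4.2, LHCB5 and LHCA2) and for 1, LHCA3, between the full-length lines, against 7.29% and 12.7% of all genes. In the truncated lines the members' log2 fold changes ran from 0.02 (LHCB4.3) to 0.41 (LHCB6), all on the side of comp-mut-dN. LHCB5 (95% interval 0.03 to 0.50, edgeR adjusted p 0.24), LHCB6 (0.07 to 0.74, edgeR adjusted p 0.201), LHCA4 (0.03 to 0.56, edgeR adjusted p 0.238) and LHCA2 (0.01 to 0.49, edgeR adjusted p 0.26) had intervals above 0. Between the full-length lines they ran from -0.30 (LHCB4.3) to 0.40 (LHCB4.2). LHCB4.1, LHCB4.2, LHCB6, LHCA1 and LHCA2 had positive values and LHCB4.3, LHCB5, LHCA3 and LHCA4 negative ones. Without replicate 3 of comp-mut, 3 members were called higher in comp-mut, LHCB4.1 (log2 fold change 0.40, edgeR adjusted p 0.0477), LHCB4.2 (0.51, edgeR adjusted p 0.00793) and LHCB6 (0.46, edgeR adjusted p 0.0356). The count of 0 in that comparison therefore depends on that library, and with all libraries kept it also depends on the processing. LHCB4.2 was called higher in comp-mut with median-of-ratios size factors and after removal of the length trend (log2 fold changes 0.45 and 0.36). LHCA4 was called lower in comp-mut with at least 10 counts in every library and after removal of the length trend (log2 fold changes -0.31 and -0.27). The interaction, which asks whether the substitutions acted differently in truncated and full-length protein, was called by edgeR for 0 members and 1.44% of all genes, and 2 members, LHCB5 and LHCA4, passed at an unadjusted p under 0.05. Its largest values were those of LHCA4 and LHCB5 (log2 differences 0.50 and 0.47, edgeR adjusted p 0.216 and 0.17). LHCB5 was called without replicate 3 of comp-mut and was the 1 member called in DESeq2, and LHCA4 when only genes with at least 10 counts in every library were used and after removal of the length trend.

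Ordered by mean level across the genotypes, LHCB4.1, LHCB6, LHCA1, LHCA2 and LHCA3 each had a single gap between neighbours whose libraries did not overlap. In all 5 it separated comp-mut-dN, comp-wt-dN and dxo1-2 on the low side from comp-mut, comp-wt and Col-0 on the high side. LHCB4.2 and LHCB5 had their 1 gap above comp-wt-dN, the lowest genotype for both. LHCA4 and LHCB4.3 had no gap, so neighbours in their order cannot be told apart by their spread. LHCB4.3 ran the other way, with comp-mut lowest, then Col-0, comp-wt, dxo1-2, comp-wt-dN and comp-mut-dN.

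Within the LHCB4 genes, the balance of the isoforms was followed as shares of the summed 3′ counts. LHCB4.3 made up 2.19, 2.0, 1.76 and 2.33% of them in the comp-mut-dN libraries and 2.52, 2.42, 2.38 and 1.95% in comp-wt-dN. The share was 0.785, 0.809, 1.0 and 0.53% in comp-mut and 1.48, 1.24, 1.05 and 1.01% in comp-wt. It was 1.78, 1.37, 1.71 and 1.55% in dxo1-2 and 0.906, 0.695, 0.80 and 0.822% in Col-0. Every dxo1-2 library thus had a larger share than every Col-0 library, and every library of the truncated lines had a larger share than every library of Col-0 and of both full-length lines. This share was chosen after its values had been seen and is given as a description without a test. LHCB4.2 made up 37.9 ± 2.28% of LHCB4 counts in dxo1-2 and 33.6 ± 1.73% in Col-0 (SD, n = 4 each). That difference of 4.27 percentage points did not pass an exact permutation test (two-sided p 0.0571, adjusted 0.171 over 10 tests of ratios, where the smallest p possible is 0.0286). Its sign turned when the share was taken as a mean of log2 ratios, which gives LHCB4.3 equal weight (-0.265).

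The summed counts of the photosystem I antenna genes stood in a ratio of 1.09 to 1.34 to those of the minor antenna genes over all 24 libraries. The ratio was 1.16 ± 0.0275 in comp-mut-dN, 1.23 ± 0.0422 in comp-wt-dN, 1.18 ± 0.0779 in comp-mut, 1.33 ± 0.0161 in comp-wt, 1.16 ± 0.0387 in dxo1-2 and 1.23 ± 0.0516 in Col-0 (SD, n = 4 each). The comp-wt libraries, with 1.34, 1.33, 1.3 and 1.33, all lay above the dxo1-2 libraries, with 1.17, 1.1, 1.19 and 1.16. This was the only comparison of the ratio with dxo1-2 without overlap, and it did not pass adjustment (two-sided exact permutation p 0.0286, adjusted 0.171). That p is the smallest possible with 4 against 4 libraries. No comparison that was alone in reaching it could pass adjustment over 10 tests, so the failure does not speak against a difference. In dxo1-2 against Col-0 the ratio differed by -0.0708 (exact permutation p 0.0857, adjusted 0.171).

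**Figure D3:**
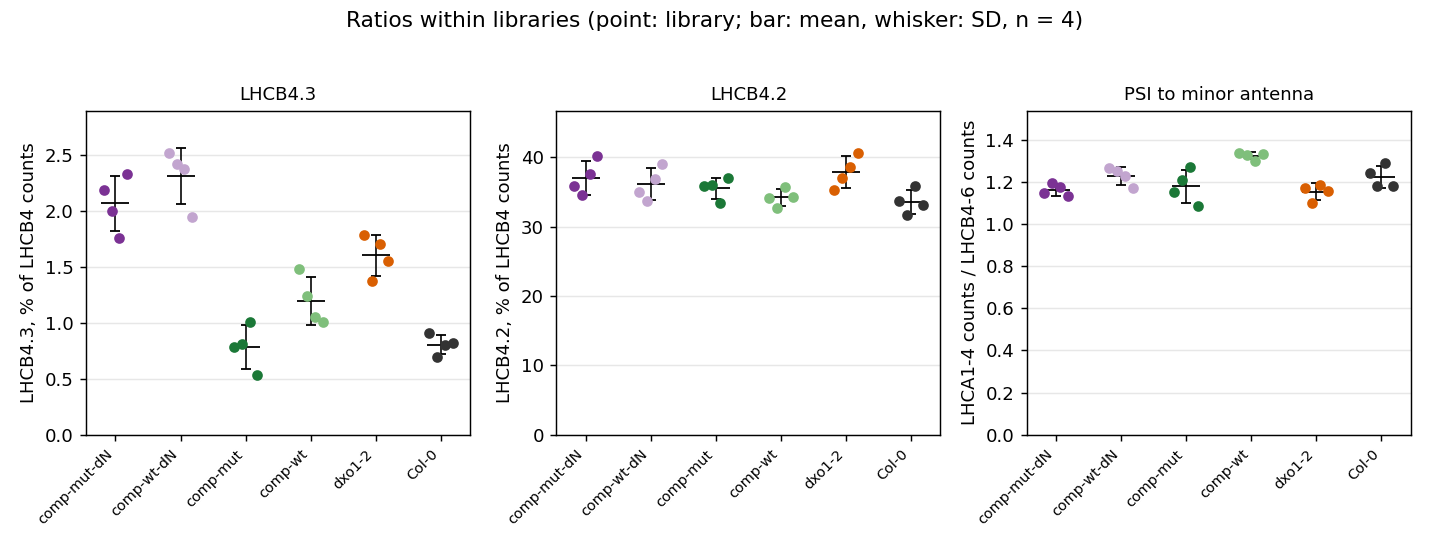
Shares and ratios of 3′ counts within each library (points), with mean and SD of the 4 libraries of a genotype, on axes that start at 0. The share of LHCB4.3 among the LHCB4 counts is 0.53% to 1.0% in comp-mut, 1.01% to 1.48% in comp-wt and 0.695% to 0.906% in Col-0. It is 1.37% or more in dxo1-2 and the truncated lines, and comp-wt replicate 1 lies within the dxo1-2 range. Groups overlap more in the other 2 panels.

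Among the other genes of the antenna and the photosystems, many photosystem I subunit genes also fell in dxo1-2. Of 12 nuclear photosystem I subunit genes, 0 were called higher and 8 lower in dxo1-2 against Col-0, where 14.7% of all genes were called higher and 7.93% lower (median log2 fold change -0.67). PSAF, at the docking site of plastocyanin, had 1906 ± 506 CPM in dxo1-2 and 4593 ± 258 CPM in Col-0 (log2 fold change -1.27, SE 0.23, edgeR adjusted p 0.000128), and PSAD1, at the docking site of ferredoxin, had 1383 ± 272 CPM in dxo1-2 and 3057 ± 214 CPM in Col-0 (log2 fold change -1.14, SE 0.16, edgeR adjusted p 7.88e-06). Of 13 photosystem II genes, 1 was higher and 6 lower (median -0.31). PSBP1 of the oxygen-evolving complex had 4189 ± 295 CPM in dxo1-2 and 9009 ± 494 CPM in Col-0 (log2 fold change -1.10, SE 0.12, edgeR adjusted p 1.15e-07), and PSBW had 4929.6 ± 1125 CPM in dxo1-2 and 9119 ± 806 CPM in Col-0 (log2 fold change -0.89, SE 0.19, edgeR adjusted p 0.00112). The gene called higher was PSB28 (log2 fold change 0.51, SE 0.16, edgeR adjusted p 0.0239). Of the 9 major LHCII genes, 0 were higher and 4 lower (median -0.27), among them LHCB2.2 (log2 fold change -0.67, SE 0.13, edgeR adjusted p 0.000298) and LHCB1.3 (log2 fold change -0.59, SE 0.17, edgeR adjusted p 0.0122), whose counts may mix with those of its near-identical neighbours LHCB1.1 and LHCB1.2. The other 2 were LHCB1.5 and LHCB2.1. The median over the members, -0.80, was lower than over each of these lists, and whether the lists differ was not tested. Of 3 rare members of the family, LHCA6 was lower (log2 fold change -0.43, SE 0.15, edgeR adjusted p 0.0409), while LHCA5 and LHCB7 were not called.

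Of 5 genes of the pathway that carries light-harvesting proteins to the thylakoid, 1 was called higher in dxo1-2 and 0 lower, against 14.7% and 7.93% of all genes, a count too small to set this list apart from them. The called gene, CPSRP43 (AT2G47450), the chloroplast signal recognition particle subunit that holds light-harvesting proteins in solution, had 419 ± 24.5 CPM in dxo1-2 and 208 ± 23.4 CPM in Col-0 (SD, n = 4), without overlap (log2 fold change 1.01, SE 0.13, edgeR adjusted p 2.29e-06). It had 401 to 434 CPM in comp-mut-dN, 357 to 429 CPM in comp-wt-dN, 182 to 246 CPM in comp-mut and 161 to 185 CPM in comp-wt, so the truncated lines lay with dxo1-2 and the full-length lines near Col-0. Of 7 genes that modify or regulate the antenna, 0 were higher and 1 was lower, again too few to set the list apart. It was the phosphatase gene TAP38, which acts on LHCII (log2 fold change -0.44, SE 0.15, edgeR adjusted p 0.0314).

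Of 7 other relatives of the light-harvesting proteins, 4 were called higher in dxo1-2 and 0 lower, against 14.7% and 7.93% of all genes. ELIP1 (AT3G22840) and ELIP2 (AT4G14690), early light-induced proteins that accumulate in strong light, were among them. ELIP1 had 27 to 81 counts per library in dxo1-2 and 4 to 8 in Col-0 (log2 fold change 2.73, SE 0.31, edgeR adjusted p 3.13e-07). It had 93 to 207 counts in comp-mut-dN, 89 to 161 in comp-wt-dN, 0 to 1 in comp-mut and 2 to 5 in comp-wt. Its truncated lines were called above dxo1-2 (log2 fold changes 1.07 and 0.99, edgeR adjusted p 0.0224 and 0.0176), where 0 antenna members were called. ELIP2 had 16 to 41 counts per library in dxo1-2 and 0 to 2 in Col-0, too few for a fold. The other 2 called were SEP2 (log2 fold change 1.85, edgeR adjusted p 1.1e-05) and OHP1 (log2 fold change 0.55, edgeR adjusted p 0.0427). The lists of other genes were picked with results of these data known, so their counts are descriptions.

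**Figure D4:**
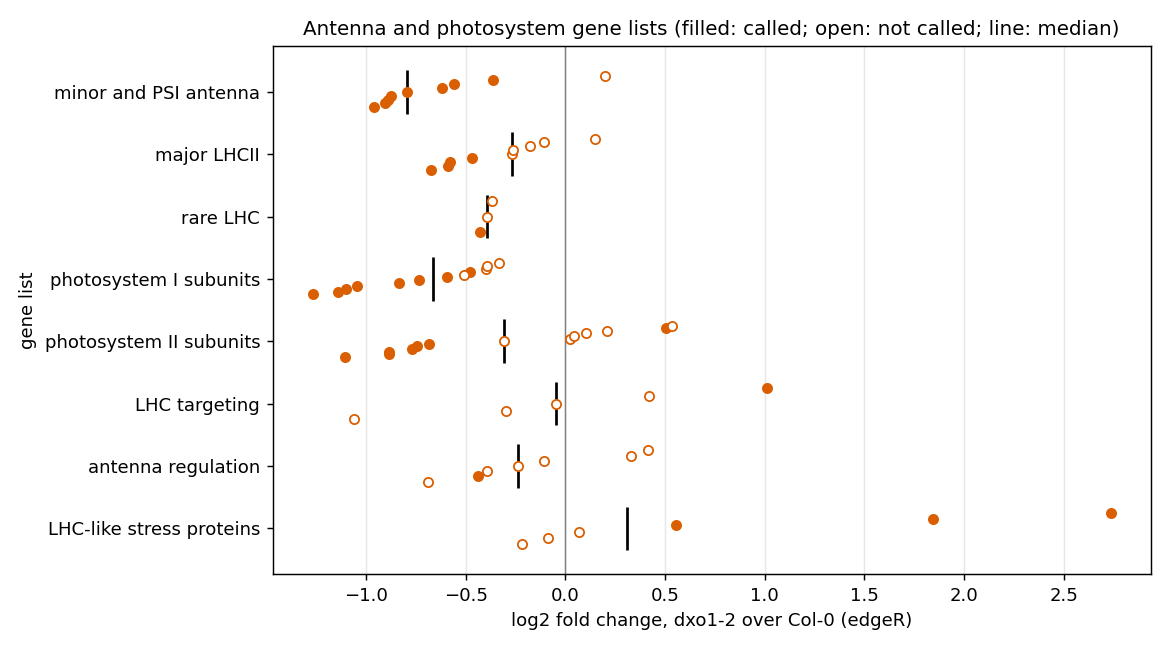
Log2 fold change of dxo1-2 over Col-0 for each gene of 8 lists (points), with the median of the genes plotted in each list (black line). Filled points passed an edgeR adjusted p of 0.05, open points did not, and ELIP2 is left out because its Col-0 libraries hold 0 to 2 counts. The 8 called members lie between -0.96 and -0.36, and the list labelled LHC-like stress proteins reaches to 2.73 on the other side.

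The full-length lines also had higher counts of photosystem I subunit genes than dxo1-2. In comp-mut against dxo1-2, 8 of 12 photosystem I subunit genes were called higher and 0 lower, against 10.4% and 15.1% of all genes, and in comp-wt 4 and 0, against 12.1% and 18.5%. In the truncated lines no gene of this list was called against dxo1-2, with a lowest edgeR adjusted p of 1.0 in comp-mut-dN and 0.102 in comp-wt-dN (PSAE1, log2 fold change -0.47). Of the 9 major LHCII genes, 4 were called higher and 2 lower in comp-mut against dxo1-2, and 0 higher and 1 lower in comp-wt, a share below that of all genes in the same comparison. The genes lower in comp-mut were LHCB1.1 and LHCB2.3 (log2 fold change -0.33, edgeR adjusted p 0.0363). LHCB1.1 was lower in both lines (log2 fold changes -0.56 and -0.70, edgeR adjusted p 0.00763 and 0.000897), whose counts may mix with those of its near-identical neighbours.

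The genes most like the antenna genes were found by the Pearson correlation of log2 CPM with the mean standardised profile of the 9 members over the 24 libraries, among 5495 other genes with a mean of at least 20 CPM. They were PSBP-1 (AT1G06680, r = 0.977), RD19 (AT4G39090, a cysteine protease gene, r = 0.958), TAPX (AT1G77490, the thylakoid ascorbate peroxidase, r = 0.957), PSAG (AT1G55670, a photosystem I subunit, r = 0.956) and OEP16-1 (AT2G28900, a plastid envelope protein gene, r = 0.953). The members themselves correlated with this profile, which contains them, at 0.819 (LHCB5) to 0.975 (LHCA2), except LHCB4.3 at -0.597. The 24 libraries fall into 6 genotypes and share their scaling, so these values are a description. On the opposite strand, genes overlap LHCB4.2, LHCB6 and LHCA4 by 44 to 358 bases. Their counts came to at most 0.296% of those of the member they overlap, and whether strand was used in counting is not given in the sources used here.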

How the data were processed

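The data were 3′ RNA-seq counts per gene, deposited as 1 table per library for 24 libraries. The authors made these counts from reads with STAR 2.7.8a on TAIR10 and list DESeq2, per the submitters' processing notes. The counter, its use of strand and its filters are not given in the sources used here. Totals ran from 1270033 to 3490594 counts per library. Counts were fitted in edgeR 4.0.16 (R 4.3.3) with TMM scaling, its filter on low counts by group and the quasi-likelihood test, all 24 libraries in one fit. Calls used a Benjamini-Hochberg adjusted p under 0.05 over the 13592 genes tested. Intervals are at 95%. Of 37184 loci, 36899 matched the TAIR10.1 annotation, which gave coordinates, exon lengths and sequences.

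Ratios of counts were compared by exact permutation of libraries, two-sided. DESeq2 1.42.0, other scalings, filters, sample sets and left-out libraries served as alternatives, and the fit was tested on simulated data. The simulation made libraries independent and gave all genes the same spread beyond sampling noise, unlike the real data. It therefore does not measure the error rate in these libraries. No 2 libraries of a genotype were identical (36 pairs). The 9 genes and the other gene lists were chosen with earlier results of these data known. All 9 were tested in every comparison, but not every comparison names all of them. From each other list the 2 called genes with the largest change in each direction in dxo1-2 against Col-0 were named, with DXO1 as a check of the labels, and the 5 genes most correlated with the members among those with a mean of at least 20 CPM.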

Additional observations from a re-analysis of the deposited data

Results flagged for a closer look

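In comp-wt, LHCA2 had 6666.1 CPM in replicate 3, far from the other 3 libraries of the genotype (5948.5, 5959.6 and 6033.8 CPM). The gap to the nearest library was 0.881 of the whole range, above Dixon's critical value at 95% for 4 samples. This was 1 of 72 groups of 4 libraries examined, and chance flags about 1 in 20 groups. LHCA2 was called higher in comp-wt against dxo1-2 with and without that library.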

How the results depend on the processing

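Of 54 called values of the members, 46 kept their call under every alternative run, 8 lost it under at least 1, and 0 changed sign. The count of called members in comp-wt against dxo1-2 was 7, and 4 with no filter on low counts, where LHCB4.1, LHCB6 and LHCA4 were lost. In comp-wt against Col-0, where the count was 0, DESeq2 gave 2, a fit of only those genotypes 4 and removal of the length trend 3. In comp-mut against Col-0 it was 0, and 1 with at least 10 counts in every library and 1 with the length trend removed. In comp-mut against comp-wt, also with 0 called, DESeq2 gave 2, scaling by median-of-ratios size factors 1, at least 10 counts in every library 1, the removed length trend 2 and a left-out library 0 to 3. For the interaction it was 0, and 1 in each of DESeq2, at least 10 counts and the length trend removed, and 0 to 1 when 1 library was left out. Over all alternatives 77 values of members had the other sign, all not called and at most 0.175 in size. Among them were those of LHCA1 in comp-wt-dN against dxo1-2 (0.133 with at least 10 counts and 0.175 with the length trend removed) and in comp-mut-dN against comp-wt-dN (-0.106 and -0.155). The LHCB4.2 share, taken as a mean of log2 ratios, which gives LHCB4.3 equal weight, was -0.265 in dxo1-2 against Col-0, 0.0249 in comp-wt against dxo1-2 and 0.406 in comp-mut against dxo1-2, all with the other sign. Leaving out 1 library moved its difference in comp-mut-dN against dxo1-2 between -1.90 and 0.0747. It moved the ratio of photosystem I to minor antenna counts between -0.00405 and 0.0569 in comp-mut against dxo1-2 and between -0.0103 and 0.0189 in comp-mut-dN against dxo1-2, where the mean of log2 ratios gave -0.0309. Except where the construction is named, the cause was not tested. Replicate numbers were not taken to pair the libraries, since in no comparison did all same-numbered libraries correlate above 0.1. They came closest between comp-mut-dN and comp-wt-dN (0.177, 0.601, -0.03 and 0.613), where the block also called 0 members, with the lowest edgeR adjusted p that of LHCB6 (0.131). With the replicate block the count in comp-mut against dxo1-2 was 7 in place of 6, with LHCB4.3 lower (log2 fold change -0.40, edgeR adjusted p 0.0396), and no other count of members changed. Over all genes the block raised the calls in every comparison, to 1222 in place of 854 in comp-mut against comp-wt. On the main axis of spread within genotypes, replicate 4 of each genotype but comp-wt lay on the positive side. Replicate 1 of each genotype but comp-mut lay on the negative side. Whether replicate numbers mark a batch was not tested. Over all genes, calls in comp-wt against Col-0 numbered 140, and 317 in DESeq2, 1349 with only those genotypes, 219 with the block and 352 with the length trend removed. In comp-wt-dN against dxo1-2 they numbered 412, and 177 with only those genotypes and 631 with the block. In comp-mut-dN against dxo1-2 they numbered 108, and 172 in DESeq2 and 195 with the length trend removed. In comp-mut-dN against comp-wt-dN they numbered 287, and 8 with only those genotypes and 442 with the block. For the interaction they numbered 196, and 354 in DESeq2 and 368 with the length trend removed. Removal of the length trend moved the share of calls that were higher to 51.0% in comp-mut-dN against Col-0, in place of 62.1%, and to 38.1% in comp-wt against Col-0, in place of 53.6%.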
